A study of Mus musculus with 12 samples.

Results

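The genes of the mitochondrial genome are the 37 rows of the expression table that lie on chromosome MT, out of 56162 features listed. They are 13 protein-coding genes, 2 ribosomal RNAs (rRNAs) and 22 transfer RNAs (tRNAs), with 28 genes on the forward strand and 9 on the reverse strand, and all 37 have the coordinates of the GENCODE M21 annotation of mouse build mm10. Reads were counted in 16 of them: the 13 protein-coding genes, both rRNAs and the proline tRNA mt-Tp. The other 21 genes, all tRNAs, had no count in any of the 12 libraries.

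The libraries came from myofibers of male C57BL/6J mice, labelled as 8 weeks old in every group, and fell into 4 groups of 3: type I fibres of the soleus and type IIb fibres of the extensor digitorum longus, each untrained or trained. Training was treadmill running at 12 to 16 m/min, 60 min a day on 5 days a week over 6 weeks, and muscles were taken 3 days after the final session. Fibres were freed with collagenase (2 mg/ml, 37 °C), over 90 min for soleus and 60 min for extensor digitorum longus, so fibre type, muscle and digestion time changed together and cannot be told apart. One piece of each fibre was typed by its myosin heavy chain and the remainder was lysed for SMART-Seq HT cDNA and Nextera XT libraries, which keep no strand. The labels name no separate animals and do not say how many fibres a library holds, so the spread between libraries may be partly technical, and fewer cells of a type cannot be told apart from less RNA per cell.

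Mammalian mitochondrial DNA is a small circle that is transcribed from both strands as long precursors. These are cut at the tRNAs that punctuate them into rRNAs, tRNAs and mRNAs, and most of the mRNAs receive a poly(A) tail. The proteins are core subunits of the respiratory chain and of ATP synthase, whose other subunits come from nuclear genes, and oxidative muscle fibres are known for a dense mitochondrial network.

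Several of the mitochondrial mRNAs share bases, and how far this bears on the values below was not tested. mt-Atp8 and mt-Atp6, subunits of ATP synthase, are read from one mRNA and overlap by 43 bases. mt-Nd4l and mt-Nd4, subunits of complex I, likewise share an mRNA and overlap by 7 bases. mt-Nd6, the protein-coding gene of the reverse strand, overlaps the end of mt-Nd5 on the forward strand by 14 bases. The sequences below are from the GENCODE M21 transcripts (mm10), written 5′ to 3′ along each gene's own strand. They are mt-Atp8 (chrM:7766-7969, forward), with the bases it shares with mt-Atp6 in capitals, mt-Nd4l (chrM:9877-10173, forward), with the bases it shares with mt-Nd4 in capitals, and the last 60 bases of mt-Nd5 (chrM:13506-13565, forward) and of mt-Nd6 (chrM:13552-13611, reverse), with the overlap in capitals.
mt-Atp8: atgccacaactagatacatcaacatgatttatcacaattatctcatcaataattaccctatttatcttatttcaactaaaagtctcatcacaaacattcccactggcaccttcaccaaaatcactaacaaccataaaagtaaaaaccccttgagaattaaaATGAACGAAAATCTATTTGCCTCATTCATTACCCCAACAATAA
mt-Nd4l: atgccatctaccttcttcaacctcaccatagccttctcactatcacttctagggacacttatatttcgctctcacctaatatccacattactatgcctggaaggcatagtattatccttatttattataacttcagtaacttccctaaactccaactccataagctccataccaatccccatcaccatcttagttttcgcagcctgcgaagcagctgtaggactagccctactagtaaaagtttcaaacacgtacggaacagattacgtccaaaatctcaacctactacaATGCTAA
mt-Nd5, last bases: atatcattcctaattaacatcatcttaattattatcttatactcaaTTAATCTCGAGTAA
mt-Nd6, last bases: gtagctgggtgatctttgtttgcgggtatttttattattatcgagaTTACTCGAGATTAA

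The mitochondrial genes took between 5.86% and 34.7% of all counts of a library, with a median of 24.8%. In untrained type I fibres the share was 16.5%, 21.7% and 14.6% in libraries 1, 2 and 3 (17.6 ± 3.67, SD, n = 3). In trained type I fibres it was 19.2%, 34.7% and 5.86% (19.9 ± 14.4). The trained type I libraries therefore hold both the highest and the lowest share of the 12. In type IIb fibres the share was 28.3%, 26.7% and 28.3% untrained (27.8 ± 0.917) and 29.3%, 24.64% and 24.97% trained (26.3 ± 2.62). Each untrained type I library lay below each untrained type IIb library, while the trained groups overlapped because trained type I library 2 lay above them all.

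**Figure D1:**
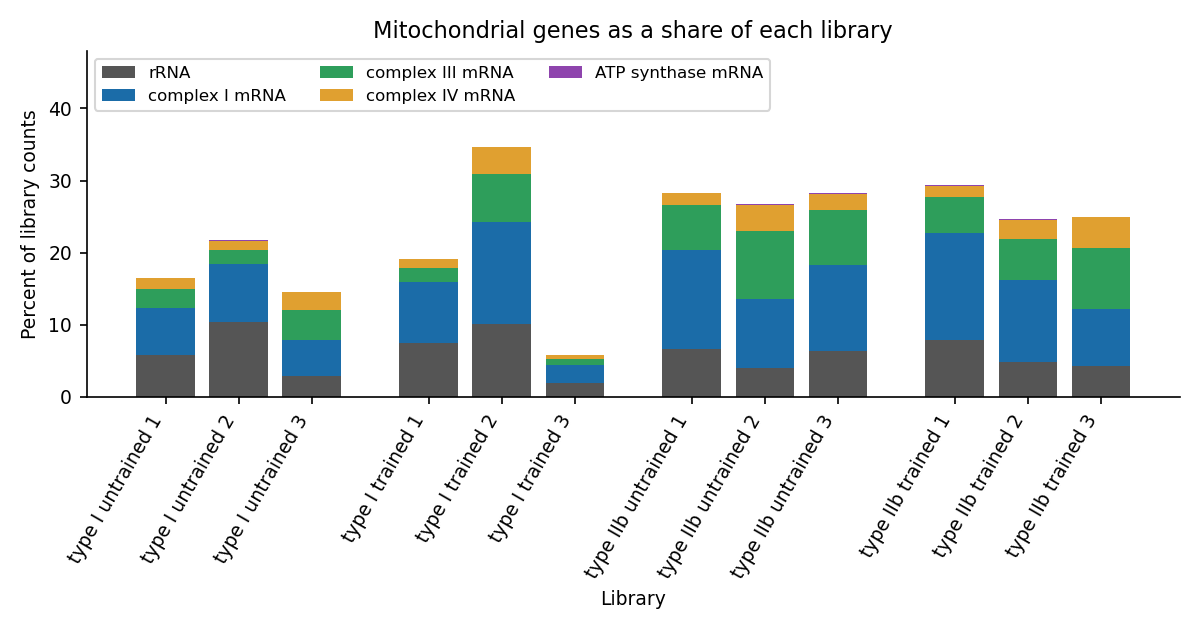
Percent of the counts of each of the 12 libraries that fell in mitochondrial genes, as bars stacked by class of gene from 0. The bars of trained type I libraries run from 5.86% to 34.7%, and those of the 6 type IIb libraries from 24.64% to 29.3%.

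Levels per length (FPKM, counts scaled by the length of the gene and the total of the library) spanned a wide range among genes that are transcribed as parts of common precursors. mt-Cytb, the mitochondrial subunit of complex III, had the highest mean of the 16 genes, 44133 FPKM over the 12 libraries. It was followed by mt-Nd1 at 30620 and mt-Rnr2, the large rRNA, at 29614 FPKM. The lowest protein-coding genes were mt-Nd4l with a mean of 12.1 FPKM (12 to 80 counts a library) and mt-Atp8 with 75.1 FPKM (39 to 304 counts). Their partners on the same mRNA stood far above them in every library: mt-Nd4 lay between 4837 and 34103 FPKM, against 3.08 to 28.4 for mt-Nd4l, and mt-Atp6 between 292 and 1479 FPKM, against 13.7 to 142 for mt-Atp8. In base composition these low genes stood at different places: mt-Nd4l has 41.1% of G and C, and mt-Atp8, with 31.9%, the least of the 16 genes, of which the other 14 lie between 33.0% and 44.8%.

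**Figure D2:**
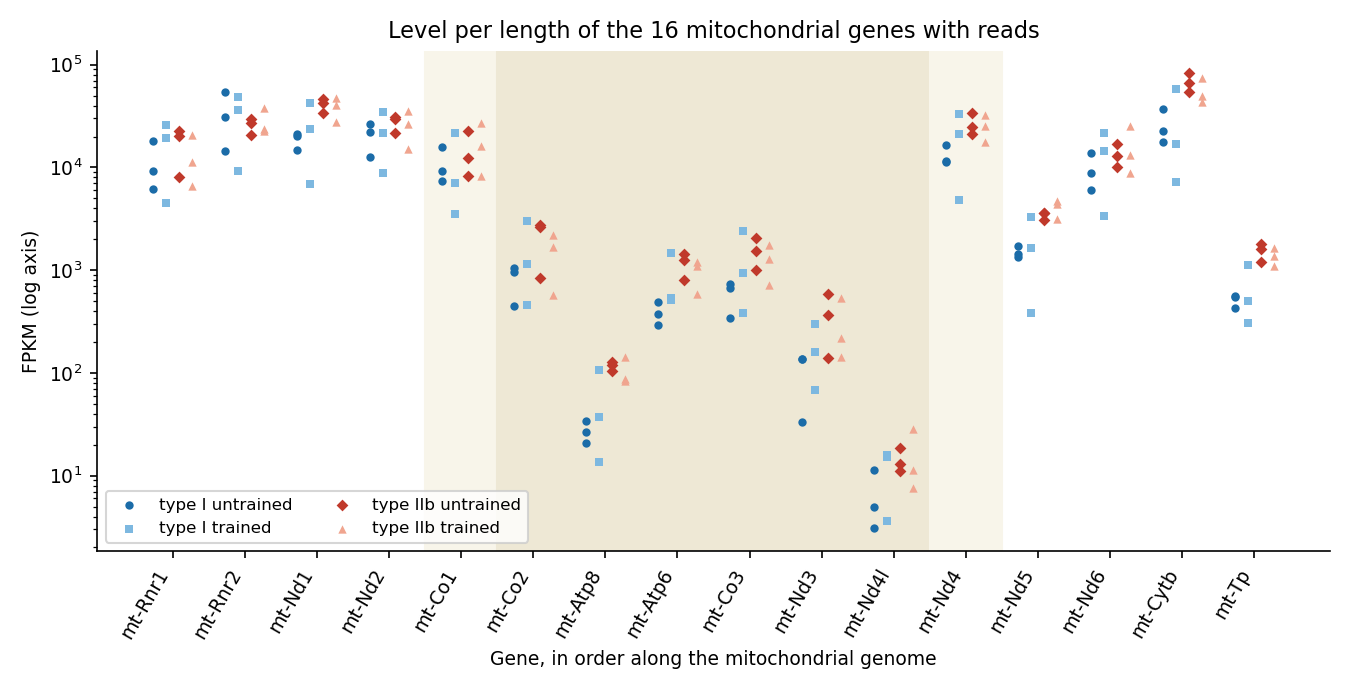
FPKM of the 16 genes with reads on a log axis, in genome order, with 1 point for each library, shaped and coloured by group. The dark band marks the 6 genes that lie wholly inside the stretch copied on chromosome 1 and the light bands the 2 genes that reach into it; points of the 6 genes run from 3.08 FPKM for mt-Nd4l to 3001 FPKM for mt-Co2.

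The low genes lie side by side, in a stretch of mitochondrial DNA that has a nearly identical copy in the nuclear genome. The annotation holds 7 pseudogenes on chromosome 1 (mm10 chr1:24611535-24616197, reverse strand) that together match chrM:6390-11042, a span of 4653 bases. Aligned with BLAST, the copies differed from the mitochondrial genes at 2 of 4140 matched bases, and 5 of the 7 had no difference. Such inserts of mitochondrial DNA are an old and common feature of mammalian chromosomes. Of the mitochondrial genes, 11 lie wholly within the stretch: the 6 mRNAs mt-Co2, mt-Atp8, mt-Atp6, mt-Co3, mt-Nd3 and mt-Nd4l, and 5 tRNAs. mt-Co1 has 31.3% of its length in it and mt-Nd4 63.6%. For mt-Atp8 the annotation names no copy of its own. Bases outside the matched parts were not compared. Positions of the 7 copies gave 2 offsets to the mitochondrial genome, so the stretch also differs in length. The lines below show how alike the matched sequences are. They give both places where a matched base differs, with that base in capitals. They also give the start of mt-Co2 beside its copy Gm28661, which does not differ in its matched bases. Mitochondrial positions are chrM:6390-6453 (mt-Co1), chrM:9459-9521 (mt-Nd3) and chrM:7013-7102 (mt-Co2), and those of the copies are chr1:24616125-24616188 (Gm29216), chr1:24613057-24613119 (Gm28438) and chr1:24615476-24615565 (Gm28661), all read 5′ to 3′ along the gene.
mt-Co1 at the difference: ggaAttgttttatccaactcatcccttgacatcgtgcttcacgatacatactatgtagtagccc
Gm29216 at the difference: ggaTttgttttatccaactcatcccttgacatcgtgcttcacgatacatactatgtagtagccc
mt-Nd3 at the difference: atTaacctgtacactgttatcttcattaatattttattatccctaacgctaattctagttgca
Gm28438 at the difference: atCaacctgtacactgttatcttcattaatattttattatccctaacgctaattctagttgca
mt-Co2, first bases: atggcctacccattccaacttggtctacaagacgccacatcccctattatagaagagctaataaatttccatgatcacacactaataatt
Gm28661, first bases: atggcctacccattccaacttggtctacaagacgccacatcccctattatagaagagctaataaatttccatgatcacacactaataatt

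Reads within these sequences cannot be assigned to one origin, and both features of each pair had counts in every library. The copy held 59.0% to 64.0% of the summed count of mt-Co2 and Gm28661 over the 12 libraries, and 42.6% to 68.8% of that of mt-Atp6 and Gm10925. For mt-Co3 and Gm28437 the copy held 49.8% to 58.2%, for mt-Nd3 and Gm28438 36.7% to 46.3%, and for mt-Nd4l and Gm10222 64.9% to 81.4%. Where most of the gene, or its far end, lies outside the stretch, the copy held less: 2.77% to 15.6% for mt-Co1 and Gm29216, and 0.563% to 0.965% for mt-Nd4 and Gm28439. The counts of mt-Co2, mt-Atp6, mt-Co3, mt-Nd3 and mt-Nd4l are therefore uncertain, and how the authors' counting treated reads that map to both places is not given in the sources used here. mt-Atp8 lies in the same stretch without an annotated copy, so no such share could be given and its count may be affected too.

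**Figure D3:**
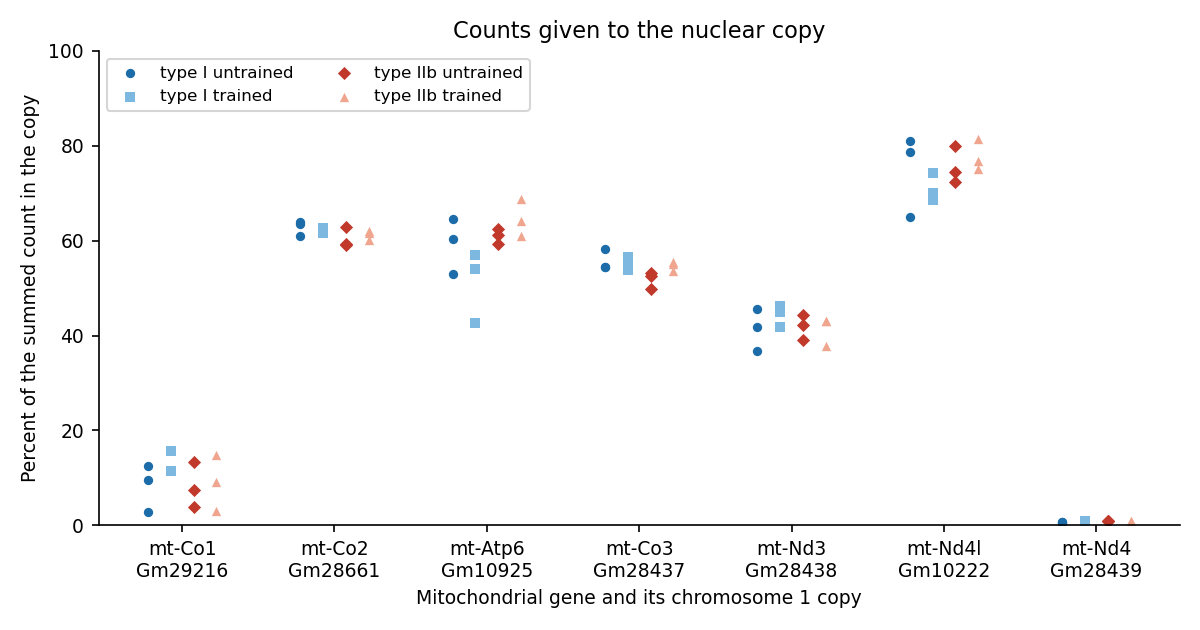
Percent of the summed count of a mitochondrial gene and its chromosome 1 copy that was given to the copy, for the 7 pairs, with 1 point for each of the 12 libraries. The pair of mt-Nd4l lies highest (64.9% to 81.4%) and that of mt-Nd4 lowest (0.563% to 0.965%).

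With the counts as deposited, in 11 of 12 libraries the highest of the 6 genes inside the stretch lay below the lowest of the 5 protein-coding genes wholly outside it (mt-Nd1, mt-Nd2, mt-Nd5, mt-Nd6 and mt-Cytb). The exception was trained type I library 3, where mt-Atp6 stood at 509 FPKM and mt-Nd5 at 387 FPKM. The median FPKM outside was 29.3 to 77.5 times that inside, with a median over libraries of 41.7. With the counts of the copies added to their gene, the full separation held in 3 of 12 libraries: in the other 9, mt-Co2 with Gm28661 lay above mt-Nd5, as in library 2 of trained type I fibres at 8043 against 3301 FPKM. The ratio of the medians was then 12.5 to 33.9, with a median of 18.2. mt-Atp8, which has no annotated copy, kept its own count. A part of reads dropped for mapping to both places was not tested.

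The 2 rRNAs form the RNA core of the mitochondrial ribosome: mt-Rnr1 of the small subunit and mt-Rnr2 of the large. mt-Rnr2 stood at 30869, 54601 and 14469 FPKM in untrained type I and at 36062, 48555 and 9287 FPKM in trained type I libraries. In type IIb fibres it stood at 29874, 20498 and 26798 FPKM untrained and at 37654, 23861 and 22845 FPKM trained. The type I libraries lie on both sides of the type IIb libraries. mt-Rnr1 stood at 9331, 18195 and 6188 FPKM in untrained type I, 19158, 26098 and 4531 in trained type I, 20255, 8067 and 22456 in untrained type IIb, and 20565, 11378 and 6600 FPKM in trained type IIb libraries. All 4 groups overlap for this gene too. The ratio of mt-Rnr2 to mt-Rnr1 per length, which come next to each other on one precursor, ranged from 1.19 to 3.46 over the libraries, with 2.88 ± 0.496 in untrained type I and 1.93 ± 0.103 in trained type I fibres (SD, n = 3), where the values do not overlap. In type IIb fibres it was 1.74 ± 0.711 untrained and 2.46 ± 0.875 trained, the opposite order, and the values overlap. Neither difference was tested, nor whether the cDNA step captures both rRNAs alike.

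Complex I, which takes electrons from NADH, has 7 subunits encoded in mitochondrial DNA. mt-Nd1 was at 20306, 21377 and 14905 FPKM in untrained type I and at 45980.2, 33744 and 42198 FPKM in untrained type IIb libraries, which do not overlap. Trained, it was at 23624, 42765 and 6851 FPKM in type I and at 47524, 40308 and 27853 FPKM in type IIb libraries, which do. mt-Nd5 was at 1452, 1350.3 and 1732 FPKM in untrained type I and at 3624, 3572 and 3098 FPKM in untrained type IIb libraries, again without overlap. In trained fibres mt-Nd5 was at 1661, 3301 and 387 FPKM in type I and at 4664, 3117 and 4369 FPKM in type IIb, so that only trained type I library 2 reached into the type IIb range. mt-Nd3 was at 137, 136 and 33.3 FPKM in untrained type I and at 585, 139.8 and 369 FPKM in untrained type IIb libraries, which do not overlap but nearly touch. mt-Nd4l, the lowest gene, was at 11.5, 3.08 and 4.98 FPKM in untrained type I and at 18.7, 11.2 and 12.9 FPKM in untrained type IIb libraries, and trained at 16.0, 15.3 and 3.63 FPKM in type I and 28.4, 7.55 and 11.4 FPKM in type IIb. Its values overlap and rest on few counts. mt-Nd2 (8855 to 35459 FPKM) overlapped between all groups on this scale, and mt-Nd4 was lower in each untrained type I library (11381, 16551 and 11509 FPKM) than in each untrained type IIb library (34103, 21110.2 and 24552).

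mt-Nd6 is the complex I subunit read from the reverse strand, and its mRNA is known to lack the poly(A) tail of the others. It was at 8846, 13879 and 6034 FPKM in untrained type I, 14357, 21604 and 3388 in trained type I, 16844, 10116 and 13039 in untrained type IIb, and 25156, 13339 and 8750.1 FPKM in trained type IIb libraries. The groups overlap throughout. Its level per length was 2.00 to 10.3 times that of mt-Nd5, whose end it overlaps. Since the libraries keep no strand, reads of mt-Nd6 cannot be told apart from forward-strand RNA that runs through the same bases, and its value is uncertain for that reason.

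mt-Cytb was at 22694, 17594 and 37347 FPKM in untrained type I and at 54142, 82130.2 and 67071 FPKM in untrained type IIb libraries. These groups do not overlap, and the means differ as 25878 ± 10254 to 67781 ± 14008 (SD, n = 3). In trained fibres it was at 16879, 58308 and 7240 FPKM in type I and at 42999, 49060 and 74133 FPKM in type IIb libraries. Here trained type I library 2 lies within the type IIb range and the other two below it.

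Complex IV, which passes electrons to oxygen, has mt-Co1, mt-Co2 and mt-Co3 as its catalytic core, and ATP synthase has mt-Atp6 and mt-Atp8 in its membrane part. mt-Co1 (3514 to 27066 FPKM) and mt-Co2 (447 to 3001 FPKM) overlapped between all groups. mt-Co3 was at 727, 669 and 341 FPKM in untrained type I and at 2074, 1005 and 1543 FPKM in untrained type IIb libraries, without overlap. mt-Atp6 was at 495, 371 and 292 FPKM in untrained type I, 535, 1479 and 509 in trained type I, 1438, 809 and 1256 in untrained type IIb, and 1199.8, 1088 and 593 FPKM in trained type IIb libraries. mt-Atp6 is the 1 gene of the 16 whose untrained type I values lie below all trained type I values on this scale, as 2.53% of all genes tested do. On the TMM-scaled CPM scale 0 of the 16 did, against 2.78% of all genes, and mt-Atp6 overlapped, with 237 CPM in an untrained and 214 CPM in a trained type I library. mt-Atp8 was at 26.3, 20.9 and 33.7 FPKM in untrained type I and at 128, 103 and 119.6 FPKM in untrained type IIb libraries, without overlap.

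Among the tRNAs, 21 of 22 had 0 counts in each library. A floor of 3 counts stands for 0.12 to 0.374 CPM, the count scaled to the library total. That floor covers counting error only and sets no limit on the level of a tRNA. How the counting treated reads that span neighbouring genes is not given, and the capture of such short RNAs was not tested. mt-Tp alone was counted, with 288 to 1696 reads a library. It was at 559, 426 and 545 FPKM in untrained type I, 505, 1116 and 309 in trained type I, 1208, 1609 and 1812 in untrained type IIb, and 1370.1, 1103 and 1655 FPKM in trained type IIb libraries. The untrained groups do not overlap. mt-Tp is the last gene of the annotated circle and is read from the reverse strand. mt-Tt, the forward-strand threonine tRNA whose end adjoins the end of mt-Tp, had no count. Both are 67 bases long. Their sequences show the neighbours, mt-Tt (chrM:15289-15355, forward) and mt-Tp (chrM:15356-15422, reverse), of which only the second was counted; whether reads of mt-Tp come from the tRNA or from RNA that runs past it was not tested.
mt-Tt: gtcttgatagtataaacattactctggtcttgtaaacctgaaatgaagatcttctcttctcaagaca
mt-Tp: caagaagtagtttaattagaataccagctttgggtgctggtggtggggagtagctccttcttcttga

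The differences between groups were tested with the quasi-likelihood test of edgeR in 1 fit over all 12 libraries and the 11747 genes that passed its expression filter, which all 16 counted mitochondrial genes did. Fold changes are on the log2 scale after TMM scaling of the libraries, their SE was derived from the fold change and its F statistic, and genes were called where the p adjusted by Benjamini-Hochberg over all of them was under 0.05. Mitochondrial genes called numbered 0 of 16 in each of the 7 comparisons.

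Untrained type I fibres were compared with untrained type IIb fibres, where 0.46% of the genes tested were called (30 higher and 24 lower in type I). None of the 16 mitochondrial genes was called, and 8 had an unadjusted p under 0.05, against 2053 of all genes. Their log2 fold changes were all below 0, with a median of -1.72 beside a median of 0.85 over all genes tested. With RLE scaling 15 of 16 lay below 0, and with the mitochondrial counts as library size 11 of 16 (median -0.45, all genes 2.17). mt-Atp6 had the smallest adjusted p of edgeR's test, 0.194, with a log2 fold change of -2.11 (SE 0.59). mt-Nd5 was at -1.73 (SE 0.56), mt-Cytb at -1.98 (SE 0.74) and mt-Co3 at -1.89 (SE 0.66), each with an adjusted p of 0.23 in edgeR's test. The other end was mt-Rnr2 at -0.04 (SE 0.74), whose sign turned with the scaling: it was 0.08 with DESeq2's size factors. The values of 9 of the 16 genes did not overlap between these groups on the FPKM scale and those of 12 on the TMM-scaled CPM scale, all lower in type I. Of all genes tested, 2.67% lay wholly lower in type I on the FPKM scale and 4.88% on the TMM-scaled CPM scale. Without trained type I library 3, which shares the estimate of the spread, 3 genes were called lower: mt-Nd5 (adjusted p = 0.00269), mt-Nd1 (0.00482) and mt-Nd4 (0.0131) by edgeR. Of all 12827 genes tested without that library, 20 were called higher and 30 lower.

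**Figure D4:**
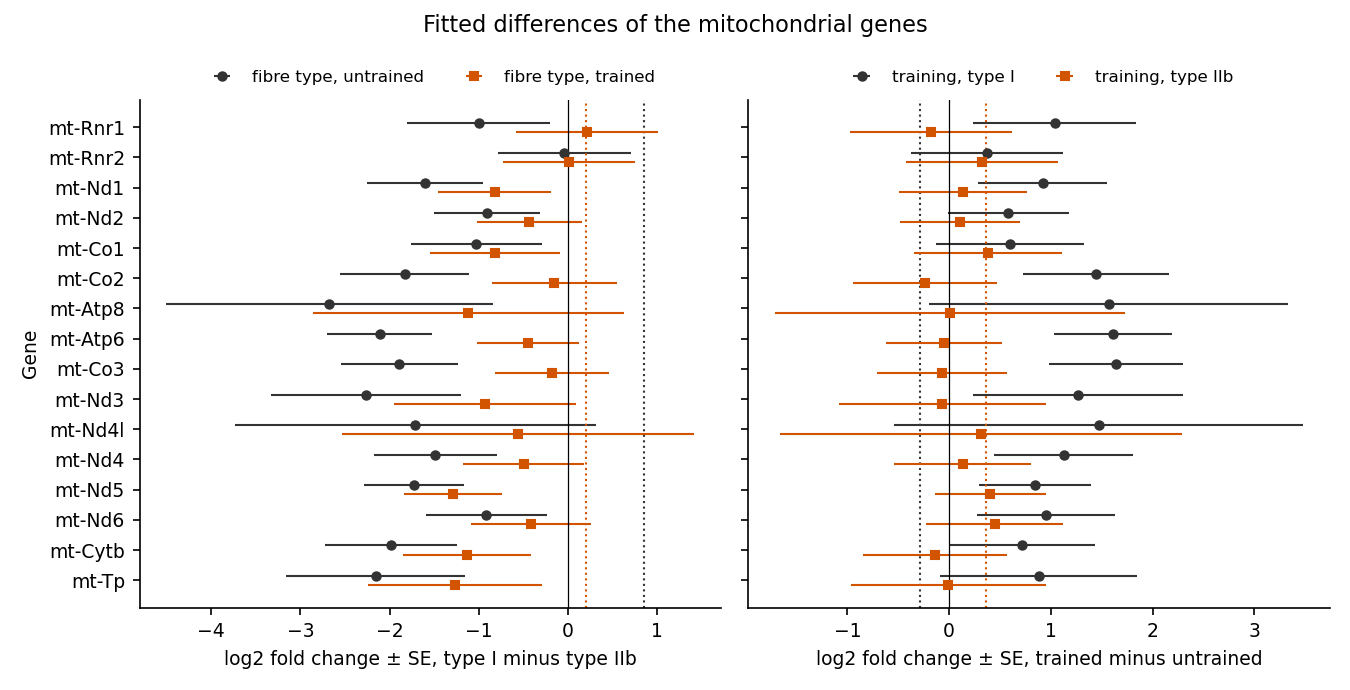
Fitted log2 fold changes of the 16 mitochondrial genes with bars of 1 SE, for type I minus type IIb fibres (left) and trained minus untrained fibres (right), with the 2 comparisons of each panel in different colours. Dotted lines give the median over all 11747 genes in the same colour; the untrained fibre type values lie between -2.68 (mt-Atp8) and -0.04 (mt-Rnr2), and no gene was called in any of the 4 comparisons.

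In trained fibres, type I minus type IIb, 0.536% of the genes tested were called and again 0 of the 16 mitochondrial genes. The log2 fold changes had a median of -0.53, with 14 of 16 below 0 (7 of 16 with mitochondrial library sizes), and the median over all genes was 0.21. Without library 3 of trained type I fibres the median was -0.11, beside -0.34 over all genes. Without library 2 it was -1.29, beside 0.16 over all genes. mt-Nd5 had an unadjusted p under 0.05, at -1.29 (SE 0.55, adjusted p = 0.614 in edgeR's test), and mt-Cytb was at -1.13 (SE 0.72). mt-Rnr1 was at 0.22 (SE 0.80). On the FPKM scale 0 of the 16 genes lay wholly lower in type I, against 2.45% of all genes tested. On the TMM-scaled CPM scale 2 of 16 did, mt-Nd5 and mt-Tp, against 3.77% of all genes. mt-Nd5 was at 3637, 7149.8 and 435 CPM in type I and at 10389, 8274 and 8758 CPM in trained type IIb libraries.

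With trained and untrained fibres pooled, type I minus type IIb, 1.93% of the genes tested were called. The mitochondrial genes called numbered 0 of 16, with 7 at an unadjusted p under 0.05, a median log2 fold change of -1.08 and all 16 below 0, or 12 with mitochondrial library sizes (median over all genes 0.60). mt-Nd5 came closest, at -1.51 (SE 0.39, adjusted p = 0.0536 in edgeR's test), followed by mt-Atp6 at -1.28 (SE 0.41, adjusted p = 0.0981). mt-Nd5 passed the threshold under 6 of 22 alternatives: library sizes without the mitochondrial counts (adjusted p = 0.045 in edgeR's test), no filter, limma-voom, log2(FPKM + 1), and without library 2 or library 3 of trained type I fibres. Gm10925, the chromosome 1 copy of mt-Atp6, was itself called lower in type I fibres, at -1.66 (SE 0.41, adjusted p = 0.0424 in edgeR's test), and with the copies added to their gene mt-Atp6 was called at -1.51 (adjusted p = 0.0433).

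Training was compared within each fibre type. In type I fibres 0% of the genes tested were called by edgeR, with 345 at an unadjusted p under 0.05, and 2 of these were mitochondrial: mt-Atp6 at 1.61 (SE 0.58) and mt-Co3 at 1.64 (SE 0.66), each with an adjusted p of 1. All 16 log2 fold changes lay above 0, with a median of 1.00 beside -0.28 over all genes, while 4 lay below 0 with mitochondrial library sizes and 5 with log2(FPKM + 1). This rests in part on trained type I library 2, without which the median was 0.35 and 5 of 16 genes lay below 0. The median was 1.49 without library 3. Over all genes the medians were -0.44 without library 2 and -1.09 without library 3. DESeq2 called 0 of the 16 genes, and limma-voom with sample weights called 5 in the opposite direction. Sample weights let the libraries of a group count unequally, and their size was not examined. Among the 5, mt-Nd1 was at -1.22 (SE 0.0967) by limma-voom. Its TMM-scaled CPM were 13609, 19205 and 9423 in untrained and 27142, 48604 and 4047 in trained type I libraries. Only trained library 3 lay below the untrained values. Limma-voom's median was -0.57 for the 16 genes and -1.09 over all genes, of which it called 2 higher and 7 lower.

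In type IIb fibres 0% of the genes tested were called for training by edgeR, with 965 at an unadjusted p under 0.05, and 0 of these were mitochondrial. The median log2 fold change of the 16 genes was 0.06 with 7 below 0, beside 0.36 over all genes. The values lay between -0.24 (SE 0.70) for mt-Co2 and 0.45 (SE 0.67) for mt-Nd6. On the TMM-scaled CPM scale 1 of the 16, mt-Nd5, lay wholly lower in untrained than in trained type IIb libraries, and on the FPKM scale 0 did. The share of all genes that did so was not computed for this comparison. DESeq2 called 0 and limma-voom with sample weights 1 of the 16 genes (mt-Nd2, lower after training). Over all genes limma-voom called 1 higher and 1 lower. Pooled over fibre types, training called 0% of the genes tested, with 449 at an unadjusted p under 0.05, of which 0 were mitochondrial. The difference between the training effects of the fibre types (interaction) also called 0%, with 1050 at an unadjusted p under 0.05 and 0 mitochondrial. Its values were all above 0 (median 0.94, beside -0.68 over all genes), or 14 of 16 with RLE scaling. They ran from 0.05 (SE 1.05) for mt-Rnr2 to 1.71 (SE 0.91) for mt-Co3. Without trained type I library 2 the median was 0.20 with 6 of 16 below 0, beside -0.86 over all genes. With mitochondrial library sizes 4 lay below 0, with log2(FPKM + 1) 4 and with limma-voom 8. A difference in response was therefore not shown. In the pooled comparison DESeq2 called 0 and limma-voom with sample weights 3 of the 16 genes, all lower after training. In the interaction they called 0 and 3, the 3 being below 0, against the sign of edgeR's values. Over all genes limma-voom called 0 higher and 3 lower in the pooled comparison, and likewise 0 and 3 in the interaction.

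Within the mitochondrial counts, the balance of rRNA and mRNA counts also differed between libraries. Whether the cDNA step captures rRNA and mRNA alike was not tested, so these are shares of counts only. The rRNAs took 35.0%, 47.8% and 19.7% of the mitochondrial counts in untrained type I and 39.2%, 29.3% and 32.4% in trained type I libraries. They took 23.5%, 15.02% and 22.6% in untrained type IIb and 27.0%, 19.7% and 17.0% in trained type IIb libraries. Each trained type I library had a larger part of rRNA than each trained type IIb library, while untrained library 3 of type I lay inside the type IIb range. mt-Cytb took 15.7%, 9.27% and 29.2% in untrained type I, 10.1%, 19.2% and 14.1% in trained type I, 21.9%, 35.2% and 27.1% in untrained type IIb, and 16.8%, 22.8% and 34.0% in trained type IIb libraries. Complex I mRNAs took a steadier part, 31.7% to 50.6% over all libraries, and ATP synthase mRNAs 0.118% to 0.596%. With the mitochondrial counts as library size, so that each gene is read against the other mitochondrial genes, edgeR called 0 of 16 in the fibre type comparisons, mt-Rnr2 being nearest at a log2 fold change of 0.79 for type I minus type IIb, pooled (adjusted p = 0.0511).

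**Figure D5:**
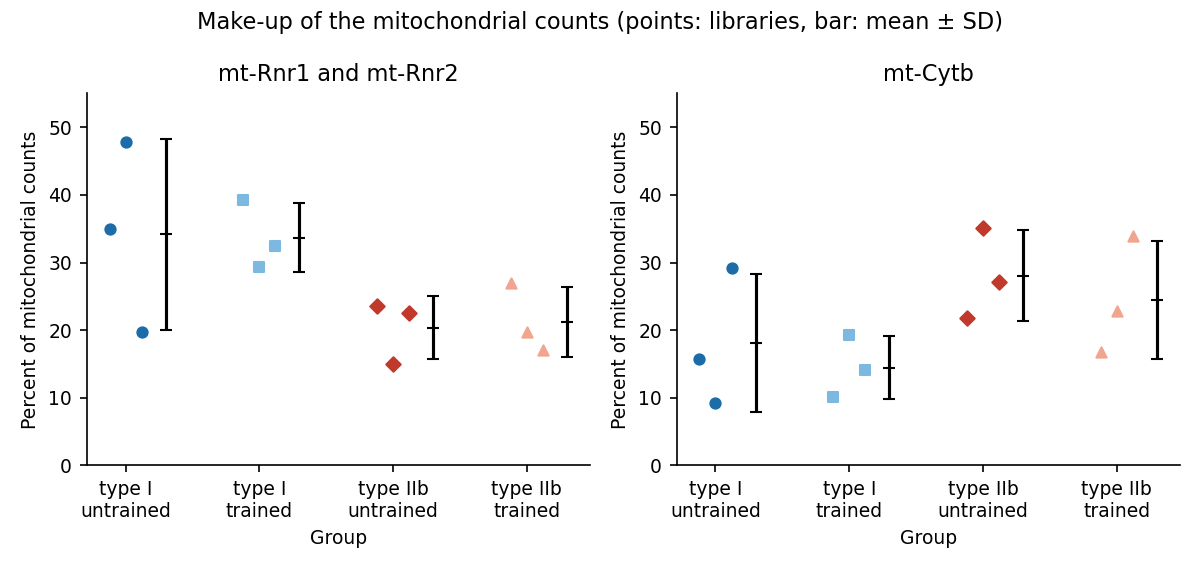
Percent of the mitochondrial counts taken by the 2 rRNAs (left) and by mt-Cytb (right) in each library, by group, with the mean and SD of the 3 libraries beside them. The rRNA part of trained type I libraries (29.3% to 39.2%) lies above that of trained type IIb libraries (17.0% to 27.0%), and the mt-Cytb parts overlap in trained fibres.

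Libraries with much mt-Cytb also had much mt-Co1. The pair took 45.8% of the mitochondrial counts in untrained type I library 3, 48.3% in untrained type IIb library 2 and 50.7% in trained type IIb library 3, against 14.5% to 33.8% in the other 9. These 3 libraries had the most genes with 10 or more counts of their groups, 14428, 9170 and 10932. In trained type I fibres the order differed, since library 3 had the most genes (11852) and 23.4% in the pair, less than the 28.7% of library 2. The library with the most genes in each group also had the most counts. These totals were 24995288, 14408531 and 15292039 in the 3 libraries and 13919488 in trained type I library 3. Library complexity and depth cannot be told apart here, and their part in these shares was not tested.

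The nuclear genes that serve mitochondrial DNA were read beside it. None of 15 genes tested for its transcription and replication (17 listed), and none of 19 tested for the processing and stability of its RNA (22 listed), was called in any of the 7 comparisons by edgeR. In untrained fibres, type I minus type IIb, the median log2 fold change of the first list was -0.67 with 11 of 15 below 0, and that of the second 0.27 with 8 of 19 below 0. Tfam, which packages mitochondrial DNA and starts its transcription, was at 64.9, 59.8 and 29.4 TMM-scaled CPM in untrained type I and at 86.4, 63.2 and 172 CPM in untrained type IIb libraries, which overlap. Of the other genes chosen by level, Ssbp1 was at -0.67 (SE 0.75), Mterf3 at 0.80 (SE 1.77), Grsf1 at -0.91 (SE 0.87) and Hsd17b10 at -0.58 (SE 1.44) on the log2 scale in that comparison. Lrpprc, which stabilises mitochondrial mRNAs, was at 106, 77.7 and 57.8 CPM in untrained type I and at 403, 64.8 and 143 CPM in trained type I libraries, which overlap as well.

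Nuclear subunits of the same complexes were also called in no comparison: 0 of 10 tested for complex I, 0 of 9 for complex III, 0 of 10 for complex IV and 0 of 10 for ATP synthase. In untrained fibres, type I minus type IIb, their median log2 fold changes were -0.38, 0.10, -0.33 and -0.05, beside 0.85 over all genes. In the same order 9 of 10, 3 of 9, 10 of 10 and 5 of 10 nuclear genes lay below 0. The medians were -1.60 for the 7 mitochondrial genes of complex I, -1.98 for mt-Cytb, -1.83 for those of complex IV and -2.39 for those of ATP synthase. A difference between the nuclear and mitochondrial subunits was not tested. Cox6a2, the muscle form of a complex IV subunit, was at 3286, 4878 and 4014 TMM-scaled CPM in untrained type I and at 9374, 9286 and 9094 CPM in untrained type IIb libraries, without overlap, with a log2 fold change of -1.19 (SE 0.42, adjusted p = 0.23 in edgeR's test). Atp5b, the catalytic subunit of ATP synthase, was at 1690.3, 2780.2 and 1472 CPM in untrained type I and at 1493, 2109 and 1562 CPM in untrained type IIb libraries, which overlap. In the same comparison the other genes chosen by level lay between -1.18 (SE 0.57) for Uqcrb and 0.77 (SE 0.50) for Uqcrq, both subunits of complex III.

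Library totals ran from 8026397 to 24995288 counts, and 3636 to 14428 genes had 10 or more counts. The fibre labels held: all 8 type I markers were called higher, and 6 of 8 type IIb markers lower, in type I fibres, untrained and trained. The type IIb markers summed to 1350 to 7872 CPM in type I libraries, against 125983 to 204183 CPM in type IIb libraries. The type I markers summed to 1.16 to 47.5 CPM in type IIb libraries, against 46334 to 84445 CPM in type I libraries. Markers of other cells were present as well, and their part in the results was not tested except as stated. The 10 endothelial markers summed to 54.4 to 1737 CPM in untrained type I, 1.13 to 222 in trained type I, 0 in each untrained type IIb and 0 to 257 CPM in trained type IIb libraries. Fibroblast markers reached 9006 CPM in untrained type I library 3 and erythroid markers 1616 CPM in library 1 of that group. Mural, immune and satellite cell markers reached 1197, 118 and 1239 CPM at most. The 3 libraries with the most endothelial counts (untrained type I 1 and 3, trained type IIb 3) were also left out. This left 1 library in untrained type I. The median log2 fold change of the 16 genes in untrained fibres, type I minus type IIb, was then -1.54, beside 0 over all genes.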

How the data were processed

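The authors deposited whole read counts for each gene and an FPKM table, which scales these by gene length and library total. FPKM of the mitochondrial genes equalled count over length and total within 4.23e-08%. TopHat2 and mm10 appear in the submitters' processing notes. The counting program and its treatment of multiple hits: not given in the sources used here. All 12 columns were used (0 unused). Library totals of 8026397 to 24995288 counts were tested in R 4.3.3 with edgeR 4.0.16 (TMM, robust fit, minimum count 10, minimum total 15). Alternatives used DESeq2 1.42.0, limma 3.58.1 (log2(FPKM + 1), pseudocount 1, and voom with sample weights), other library sizes and filters, and each library left out. The fit was tested on simulated data. Sequences came from GENCODE M21 transcripts, aligned with BLAST 2.17.0 (at least 90% identity over 60 bases). Floors of 3 counts cover counting error only, since reads carry no molecular identifiers.

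Every row on chromosome MT was accounted for. Values by library are given for both rRNAs, mt-Nd6, the protein-coding genes of highest and lowest mean FPKM, the tRNA with a mean count of at least 10, and genes on which a comparison turned. With no gene of a nuclear list called, those described came from its 3 of highest mean CPM. The SE is the size of the log2 fold change over the root of F. The members and lists were chosen with earlier results of these data known.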

Additional observations from a re-analysis of the deposited data

How the results depend on the processing

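The number of mitochondrial genes called, 0 of 16 in every comparison, was 0 under RLE scaling, mitochondrial library sizes, DESeq2 and the replicate block. Limma-voom with sample weights called 5 (training, type I), 1 (training, type IIb), 11 (fibre type, untrained), 6 (trained), 11 (pooled), 3 (training, pooled) and 3 (interaction). Its weights let the libraries of a group count unequally and were not examined, so these calls need not reflect all 3 libraries of a group. With no filter on low counts 2 were called in untrained and 3 in pooled fibres, with log2(FPKM + 1) 3 pooled, without mitochondrial counts in the library size 1 pooled, and with the copies added, an alternative chosen after seeing the data, 1 pooled. Leaving out 1 library at a time gave 0 to 3 in untrained and 0 to 3 in pooled fibres. Pooled, the 3 without trained type I library 2 were mt-Nd5, mt-Cytb and mt-Atp6, and without library 3 there were 2, mt-Nd5 and mt-Nd1. Of all genes tested, 99 were called higher and 75 lower of 13432 without library 2, and 80 and 73 of 12827 without library 3. Leaving out 1 library gave 0 to 0 mitochondrial genes in the other comparisons. The cause was not tested. Over all genes, those called higher and lower in untrained, trained and pooled fibres were 30 and 24, 28 and 35, and 130 and 97. They were 963 and 68, 208 and 138, and 898 and 180 with DESeq2, 1661 and 237, 103 and 41, and 862 and 210 with limma-voom, 318 and 38, 84 and 36, and 552 and 91 with log2(FPKM + 1), and 93 and 30, 45 and 36, and 219 and 91 with no filter. With mitochondrial library sizes they were 31 and 6, 38 and 11, and 426 and 29. Pooled, they were 128 and 105 without mitochondrial counts in the library size, and 129 and 97 with the copies added. For training DESeq2 called 1 and 58 in type I, 307 and 57 in type IIb, 166 and 61 pooled, and 28 and 366 for the interaction, where edgeR called 0. Limma-voom called 2 and 7, 1 and 1, 0 and 3, and 0 and 3 in the same order.

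Signs turned mainly for mt-Rnr2. In untrained fibres, type I minus type IIb, its log2 fold change of -0.04 was 0.082 with RLE scaling and 0.082 with DESeq2, 0.96 with mitochondrial library sizes, 0.71 with limma-voom (adjusted p = 0.0151), 0.19 with log2(FPKM + 1), 0.71 without the 3 libraries richest in endothelial counts, and -0.97 to 0.31 with 1 library left out. Pooled, its -0.01 was 0.79 with mitochondrial library sizes, 0.010 with limma-voom, 0.039 with log2(FPKM + 1), 0.24 without those 3 libraries and -0.49 to 0.19 with 1 library left out. Mitochondrial library sizes also turned mt-Rnr1 (0.013 untrained, 0.42 pooled), mt-Nd2 (0.20 and 0.27), mt-Nd6 (0.15 and 0.15) and mt-Co1 (0.32 untrained), since each gene is then read against the others. Limma-voom turned the median for training in type I fibres to -0.57, beside -1.09 over all genes. RLE scaling moved the median of all genes in untrained fibres from 0.85 to 1.17 and that of the 16 genes from -1.72 to -1.44.

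Without the rRNAs the mitochondrial share was 11.3% in untrained type I, 22.1% in untrained type IIb and 20.6% in trained type IIb libraries, and the mt-Cytb share 21.6% in trained type I and 35.0% in untrained type IIb libraries. As a share of summed FPKM, untrained type IIb libraries had 25.6%. Leaving out 1 library, the share was 15.6% to 19.1%, 12.5% to 27.0%, 27.5% to 28.3% and 24.8% to 27.1% in the order untrained type I and trained, untrained type IIb and trained.

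Deviations of same-numbered libraries correlated with r of -0.13 to 0.18 over 18 pairs, and those of other pairs with -0.17 to 0.19. With 3 libraries a group, these values cannot show whether same-numbered libraries share an animal, which the labels do not state. With the replicate block 0 of 16 genes were called in each comparison, and 72 higher and 66 lower of all genes in pooled fibres, in place of 130 and 97. mt-Nd4l rests on 12 to 80 counts a library and mt-Atp8 on 39 to 304, and the SE of their log2 fold changes in untrained fibres was 2.02 and 1.83.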

Other observations

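Other nuclear copies also took counts. On chromosome 2, Gm13340 is 97.6% identical to all of mt-Co1 and had 184380 counts over the 12 libraries, against 3263239 for mt-Co1. Beside it, Gm13339 (96.7% identical to the end of mt-Nd2) had 125020 counts and Gm13341 (95.9% identical to mt-Co2) had 29776 counts. Copies of mt-Cytb and mt-Nd5 on chromosome 4 that were 92.9% and 92.4% identical had 853 and 83 counts, against 7708209 and 716877 for the mitochondrial genes. The 7 copies on chromosome 1 took 0.194% to 1.16% of library counts.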
